A study of Mus musculus with 16 samples.

Results

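Colonic mucosa of mice given an oral bacterium during chemically induced colitis (8 samples) was set against that of mice given buffer during the same colitis (4 samples), out of 16 samples in the series. The members were chosen by their labels, not by any measured value. All 12 samples came from mice given DNBS into the rectum. DNBS (dinitrobenzene sulfonic acid) is a hapten that provokes inflammation of the colon. By the labels, 4 of the 8 samples came from mice given oral CEC, 4 from mice given oral Nissle, and the 4 comparison samples (called DNBS below) from mice given oral PBS, a salt buffer. Nissle is the name of a probiotic Escherichia coli strain. The labels do not spell CEC out, and it is treated here as a bacterium although they do not say so. The other 4 samples, called healthy, had PBS by both routes and are given as a background. Strain, sex, age, dose and duration are not given in the sources used here, and no transgene or deletion is named.

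The question was what both oral strains had in common, so the comparison took the mean of the CEC group mean and the Nissle group mean, and subtracted the DNBS group mean. The difference between CEC and Nissle, which uses none of the DNBS samples, was fitted beside it to show how far a gene's shared difference was carried by only 1 strain. Each strain's own difference from DNBS is also given. These last values share the same 4 DNBS samples, so a high or low DNBS value moves both of them together.

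In an inflamed colon, epithelial cells and resident macrophages release chemokines that draw neutrophils and monocytes from the blood, and these cells bring granule proteins, nitric oxide synthase and further cytokines into the mucosa. Oral bacteria can meet this response through pattern recognition receptors on epithelial and myeloid cells. Probiotic strains are commonly tested for whether they dampen these same cytokines and granule genes.

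Expression was read by real-time quantitative PCR on a panel of 648 assays for 584 inflammation and reference genes. The value in the deposited table is the Ct, the PCR cycle at which an assay's fluorescence crosses its threshold, so a lower Ct means more RNA. The level used below is −ΔCt, how many cycles earlier than the average of 13 reference genes an assay crossed its threshold. It is a log2 scale on which a gain of 1 is a doubling. A Ct above 28 was taken as not detected. A gene was tested when at least 3 of 4 samples detected it in each of the DNBS, CEC and Nissle groups, which left 469 of 568 genes. The 568 exclude the 13 reference genes, the further control genes B2m and Tfrc, and an assay shared by Ppia and another transcript. Differences were tested with limma, with p-values adjusted (Benjamini-Hochberg) across the 469 genes and a threshold of 0.05. The series description speaks of pooling equal RNA from each mouse while each sample carries its own number. It is therefore not settled if a sample stands for 1 animal or several, and the p-values measure only the spread between these samples.

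The samples of both sides were read about equally well. Detected assays averaged 555 ± 6.15 in the bacterium samples (SD, n = 8) and 557 ± 4.55 in the DNBS samples (SD, n = 4; two-sided exact permutation p = 0.626 over 495 choices of samples). The reference Ct averaged 19.19 ± 0.39 and 19.36 ± 0.43 (p = 0.485 by the same exact permutation test). Krt8, an epithelial keratin, had a Ct between 14.6 and 18.2 in all 16 samples, so the epithelium of a mucosal sample was present throughout. Within groups, the median SD of a gene was 0.39 in healthy, 0.55 in DNBS, 0.68 in CEC and 0.65 in Nissle samples, over 412 genes. The reference gene Ywhaz varied far more within groups (SD 3.47 cycles) than Rplp2 (1.01) and the other reference genes (0.26 to 0.54), and its spread moves all levels of a sample together. Of all 10368 values, 194 matched the average of their group's remaining samples and were read as gaps filled in before deposit. Nissle sample 1 held 61 of them, and such a value is called filled-in where it is printed below.

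No gene passed the threshold for a difference shared by both strains. The lowest adjusted p in limma was 0.994, and 0 of 469 genes were called (0%). An unadjusted p under 0.05 was found for 7 genes (1.49%), where 23.45 would be expected with no difference at all. Of these, Lrp8 was higher with the bacteria, and Apoe, Clu, Fabp4, Twist1, S1pr1 and Ccr9 were lower. In no gene did the 8 bacterium samples lie wholly above or below the 4 DNBS samples (0%). A 95% interval had a median width of ±0.86 on the log2 scale, and in 172 genes the interval lay within ±1, a 2-fold difference. In the other 297 genes the interval reached beyond a 2-fold difference on at least 1 side. These intervals hold for 1 gene at a time and on the reference gene scale. Their spread also draws on the healthy samples, which varied least. The median SE was 0.407, and 0.445 with only the 12 DNBS samples in the model.

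More genes lay below the DNBS mean than above it, with 164 higher and 305 lower (35.0% higher) and a median difference of −0.14. This split depended on the scaling. With the global mean of each sample as reference 52.2% of genes were higher and the median was 0.02, and with quantile normalization 53.5% were higher and the median was 0.03. All differences below are on the reference gene scale and include this general offset.

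The gene with the lowest p was Lrp8, an apolipoprotein E receptor that also binds reelin. Its level was −3.43, −3.54, −4.98 and −4.83 in the CEC samples, −4.66, −3.73, −4.47 and −4.20 in the Nissle samples, −5.59, −4.84, −5.48 and −5.11 in the DNBS samples, and between −5.82 and −5.23 in the healthy samples. Every bacterium sample exceeded the DNBS mean, but CEC sample 6 lay below the highest DNBS sample, so the groups overlapped. The mean was higher by 1.02 ± 0.33 on the log2 scale (SE; 95% interval 0.32 to 1.72), or 2.03-fold. The difference was 1.06 for CEC and 0.99 for Nissle. The unadjusted limma p was 0.0071, with an adjusted p of 0.994, and an exact permutation over the 12 samples gave an unadjusted p of 0.0141. Leaving out any sample kept the difference between 0.90 and 1.16.

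Apoe encodes apolipoprotein E, a lipid carrier that macrophages make in quantity. Its level was −0.11, 0.22, 1.33 and 0.82 with CEC, 0.81, −1.51, 0.68 and 0.33 with Nissle, 1.76, 1.19, 1.57 and 1.65 with DNBS alone, and between −0.08 and 1.01 in healthy mucosa. The 4 DNBS samples lay close together, and CEC sample 6 was the only bacterium sample to reach into their range. The mean was lower by −1.22 ± 0.41 (95% interval −2.09 to −0.35; unadjusted limma p = 0.0089, exact permutation p = 0.018), with −0.98 for CEC and −1.47 for Nissle. The bacterium samples thus lay nearer the healthy level of 0.64 ± 0.49 (SD, n = 4) than the DNBS level of 1.54 ± 0.25 (SD, n = 4), although this was not a test against healthy mucosa.

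Clu encodes clusterin, a secreted chaperone also called apolipoprotein J. Its level was −1.65, −1.50, −0.32 and −0.02 with CEC and −0.07 (filled-in), −0.66, 1.11 and −0.26 with Nissle. The DNBS samples stood at 4.15, −0.17, −0.10 and 1.46, and the healthy samples between −1.34 and −0.75. DNBS sample 2 was far above the rest. The mean was lower by −1.76 ± 0.65 (95% interval −3.13 to −0.39; unadjusted limma p = 0.015, exact permutation p = 0.030). This size depended on 1 sample, since the difference was −0.82 without DNBS sample 2.

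These 3 genes sat on a list of apolipoproteins and lipoprotein receptors that was drawn up with earlier results of these data known, so its count is no independent evidence. Of its 4 tested genes 1 was higher and 3 were lower, none passed after adjustment over all genes, 3 had an unadjusted p under 0.05 (1.49% of all tested genes), and the median difference was −1.12 against −0.14 for all tested genes. The remaining member, Apoa1, the main protein of high-density lipoprotein, was lower by −1.02 ± 0.62 (SE) and lay below the DNBS mean in 7 of 8 samples. Apoa4 was detected too rarely to be tested. The median stayed between −1.32 and −0.80 when single samples were left out.

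**Figure D1:**
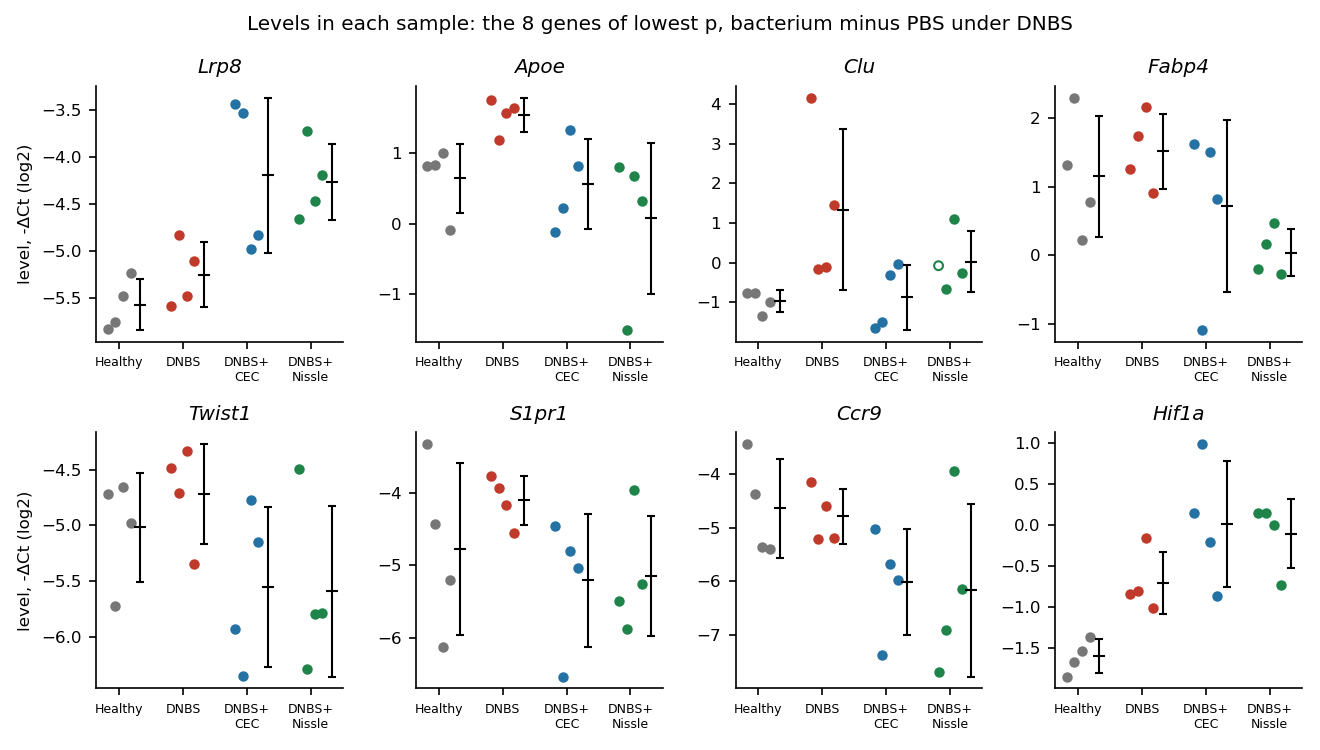
Levels (−ΔCt, log2 scale, vertical axis) of the 8 genes of lowest p in every sample of the healthy, DNBS, DNBS+CEC and DNBS+Nissle groups, with the mean and SD of each group (n = 4) beside its points and a filled-in value as an open circle. Lrp8 and Hif1a lie higher in most bacterium samples and the other 6 genes lower, while every gene has bacterium samples within the range of the DNBS samples.

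Fabp4, the fatty acid binding protein of fat cells and some macrophages, had levels of 1.63, −1.09, 1.51 and 0.82 with CEC, −0.20, 0.16, 0.46 and −0.28 with Nissle, 1.25, 1.74, 2.16 and 0.90 with DNBS alone, and between 0.23 and 2.30 in healthy mucosa. All 4 Nissle samples lay below every DNBS sample, whereas 2 of the CEC samples lay among the DNBS samples. How many of all tested genes separate the Nissle from the DNBS samples in this way was not counted. The shared difference was −1.14 ± 0.48 (SE; unadjusted limma p = 0.031, exact permutation p = 0.051), and both of the panel's Fabp4 assays gave it, at −1.28 and −0.99. CEC minus Nissle was 0.68 ± 0.56 (SE; 95% interval −0.50 to 1.86).

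Fabp4 was the fat cell gene of lowest p, and most of its list had lower means as well. Resistin (Retn) was lower by −1.18 ± 0.65, adiponectin (Adipoq) by −1.15 ± 0.73, complement factor D (Cfd) by −0.70 ± 0.65 and the leptin receptor Lepr by −0.26 ± 0.31, whereas Pparg, the master regulator of fat cell differentiation, was at 0.14 ± 0.33 (SE in each case). In all, 1 of 6 tested genes was higher and 5 were lower, none passed after adjustment, 1 had an unadjusted p under 0.05, and the median was −0.92. Over all tested genes, 1.49% had such a p, 35.0% were higher and the median was −0.14. The list's median was −0.36 for CEC and −1.28 for Nissle. The mean level over these 6 genes lay between −3.49 and −1.68 in CEC samples, −3.70 and −2.62 in Nissle samples, −2.54 and −1.25 in DNBS samples, and −2.83 and −0.65 in healthy samples. All Nissle samples were thus below all DNBS samples on this mean, but only narrowly, with −2.62 against −2.54 at the nearest. The CEC samples were spread over both ranges. How many lists or genes separate Nissle from DNBS samples in this way was not counted. Leptin (Lep), also on the list, was detected too rarely to be tested, in 3 CEC, 0 Nissle, 3 DNBS and 3 healthy samples. In a bulk sample, fewer fat cells and less RNA per fat cell cannot be told apart, and the part of attached fat tissue in these values was not tested.

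Of the remaining genes with an unadjusted p under 0.05, Twist1 encodes a transcription factor of mesenchymal cells. Its level was −5.93, −6.35, −4.78 and −5.15 with CEC, −4.49, −6.29, −5.79 and −5.79 with Nissle, and −4.48, −4.71, −4.33 and −5.34 with DNBS alone. Nissle sample 1 was as high as the DNBS samples, and DNBS sample 5 as low as several bacterium samples. The difference was −0.85 ± 0.38 (SE; unadjusted limma p = 0.040, exact permutation p = 0.048), at −0.84 for CEC and −0.87 for Nissle.

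S1pr1 encodes the sphingosine-1-phosphate receptor through which lymphocytes leave lymphoid tissue, and which endothelial cells also carry. Its level was −4.46, −6.53, −4.81 and −5.04 with CEC, −5.49, −5.88, −3.97 and −5.26 with Nissle, and −3.77, −3.94, −4.17 and −4.56 with DNBS alone. Only CEC sample 1 and Nissle sample 5 came within the DNBS range. The difference was −1.07 ± 0.50 (SE; unadjusted limma p = 0.048, exact permutation p = 0.032), and healthy samples ranged from −6.13 to −3.33, wider than the DNBS group.

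Ccr9, the receptor that guides lymphocytes to the intestine, stood at −5.03, −7.38, −5.68 and −5.97 with CEC, −7.68, −6.90, −3.95 and −6.14 with Nissle, and −4.16, −5.22, −4.61 and −5.19 with DNBS alone. The Nissle samples spanned more than the whole DNBS range, with sample 5 above it. The difference was −1.30 ± 0.61 (SE; unadjusted limma p = 0.048, exact permutation p = 0.081). Ccr6, a receptor of mucosal lymphocytes and dendritic cells, gave a similar value of −1.02 ± 0.61 and did not reach an unadjusted p of 0.05. Ccr9, S1pr1 and Ccr6 shared part of their sample pattern, so they are not separate evidence. Each was highest of the bacterium samples in Nissle sample 5 (Ccr6 at −4.75). Each was lowest of the CEC samples in CEC sample 2 (Ccr6 at −6.54). The source of this pattern was not tested.

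In these 7 genes both strains had the same sign. Their selection by the mean of the strains against the same DNBS samples favours such a result, so it is no separate evidence. CEC minus Nissle lay between −0.90 (Clu) and 0.68 (Fabp4) in them, with a lowest unadjusted limma p of 0.241. This does not show that the strains act alike, since the interval for a difference between strains had a median width of ±1.01 over all tested genes. Of the 7 genes, 5 kept an unadjusted p under 0.05 with only the 12 DNBS samples in the model, 4 with the global mean, 4 with quantile normalization and 5 without filled-in values.

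Next in rank came Hif1a, the oxygen-regulated transcription factor. Its level was 0.15, 0.99, −0.21 and −0.87 with CEC, 0.15, 0.15, 0.00 and −0.74 with Nissle, −0.85, −0.81, −0.16 and −1.01 with DNBS alone, and between −1.85 and −1.37 in healthy mucosa. In 6 of 8 bacterium samples it exceeded the DNBS mean. The difference was 0.66 ± 0.32 (SE; unadjusted limma p = 0.058, exact permutation p = 0.061), in the direction away from the healthy samples.

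C1qa, a chain of the complement starter C1q that tissue macrophages make, differed by −0.66 ± 0.33 (−0.36 without DNBS sample 2) and lay below the DNBS mean in 7 of 8 samples. Its partner chains, looked up after this value was seen, were at −0.82 ± 0.50 (C1qb) and −0.34 ± 0.33 (C1qc), below the DNBS mean in 6 of 8 samples each. Soluble epoxide hydrolase (Ephx2), which breaks down lipid epoxides, differed by −0.69 ± 0.37. The phospholipase Pla2g4c differed by −0.92 ± 0.49 over the 10 samples that detected it, −0.48 without DNBS sample 2 and −1.33 without DNBS sample 4. Ctla4, an inhibitory receptor of T cells, was at 0.67 ± 0.37, above the DNBS mean in 7 of 8 samples, with CEC sample 2 highest at −4.59 and the DNBS samples between −7.08 and −6.50. Without CEC sample 2 it was at 0.44. None of these 6 genes had an unadjusted p under 0.05, and none passed adjustment.

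**Figure D2:**
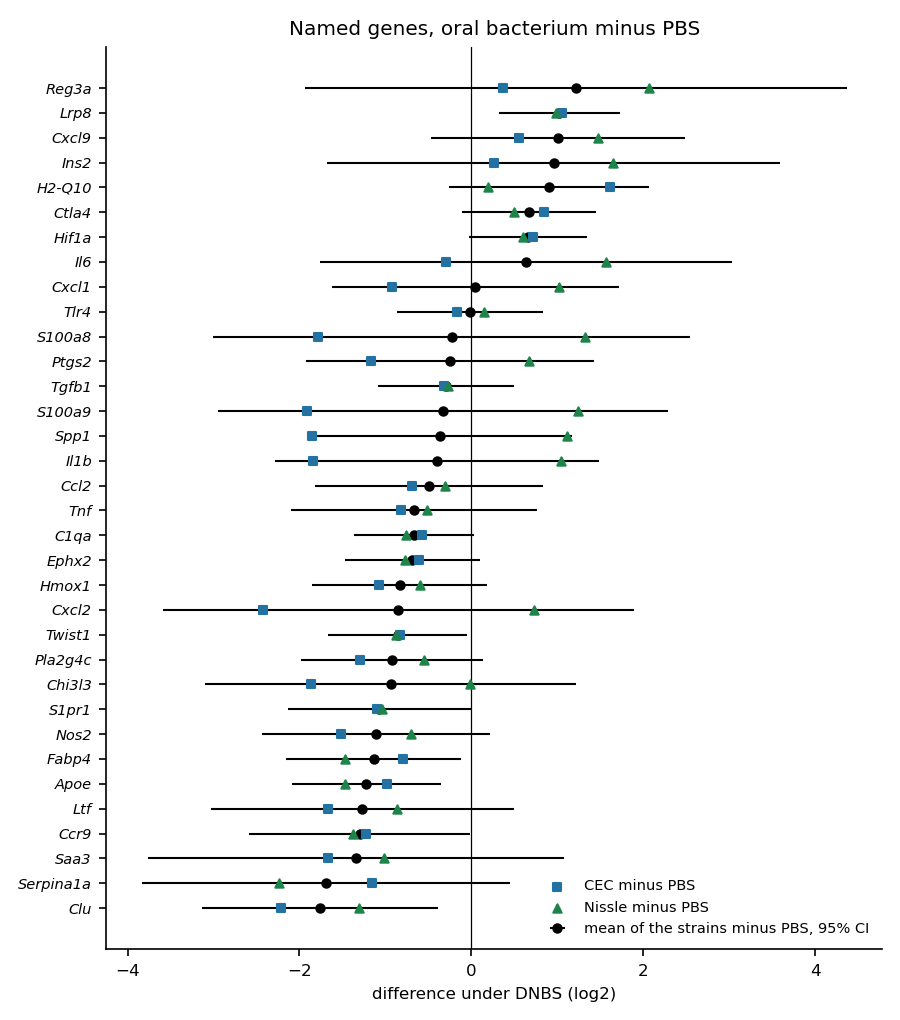
Difference from DNBS on the log2 scale (horizontal axis) for each named gene tested, as the mean of both strains with its 95% interval (black), CEC alone (square) and Nissle alone (triangle). For Lrp8, Apoe, Twist1, S1pr1 and Ccr9 the strains lie close together on 1 side of 0, while for Il1b, Spp1, S100a8, S100a9 and Cxcl2 they lie on opposite sides of 0 with the mean between them.

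Several of the largest differences by size had an interval that included 0. Serpina1a, an alpha-1 antitrypsin, was at −1.69 ± 1.01 and the acute phase protein Saa3 at −1.35 ± 1.14 (SE). They were −1.08 without Nissle sample 1 and −0.82 without CEC sample 8, respectively. Among higher genes, Reg3a, an antibacterial lectin of the gut lining, was at 1.22 ± 1.49 and Ins2, an insulin gene, at 0.96 ± 1.21. Both of these rested on Nissle sample 5, where Reg3a stood at 2.94 with every other bacterium or DNBS sample between −8.71 and −4.56, and Ins2 at −0.18. Without that sample the differences were −0.0024 and −0.071. Its Reg3a value had 4 or fewer decimals, and with all such values left out the Reg3a difference was −0.49. Ins2 was not detected in CEC sample 2 (Ct 29.8) and Nissle sample 7 (Ct 30.4), so both were left out of its difference. With no filter on detection the Ins2 difference was −0.58. The interferon-induced chemokine Cxcl9 was at 1.01 ± 0.70, and 0.51 without CEC sample 2. H2-Q10, a class Ib histocompatibility gene, was at 0.90 ± 0.55, with 1.61 for CEC and 0.19 for Nissle.

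In several neutrophil genes the strains had opposite signs, and the shared difference was small beside its error. S100a8 and S100a9 encode the subunits of calprotectin, the main cytosolic protein of neutrophils. The level of S100a8 was 2.01, 2.33, −3.42 and −4.84 with CEC, 2.42, 2.23, 2.62 and 1.23 with Nissle, −0.67, 4.77, −1.63 and 0.74 with DNBS alone, and between −6.95 and −4.07 in healthy mucosa. The CEC samples formed a high pair at the Nissle level and a low pair at or near the healthy range, the Nissle samples lay close together, and DNBS sample 3 was the highest of all. The shared difference was −0.23 ± 1.31 (95% interval −3.00 to 2.54), made of −1.78 for CEC and 1.32 for Nissle. S100a9 had −0.33 ± 1.23, made of −1.91 and 1.24. Without DNBS sample 3 the shared differences turned to 1.09 and 1.04, and without DNBS sample 4 they were −1.04 and −1.26.

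Ltf, the iron-binding lactoferrin of neutrophil granules, was at −3.31, −1.45, −5.98 and −6.40 with CEC and −3.58 (filled-in), −3.09, −4.05 and −3.18 with Nissle. It was at −1.0, −1.55, −5.04 and −2.85 with DNBS alone. Here 7 of 8 bacterium samples lay below the DNBS mean, and the strains had the same sign. The difference was −1.27 ± 0.83, and −0.73 and −2.08 without DNBS samples 2 and 4. Of the 11 tested genes for neutrophil recruitment and granules 2 were higher and 9 lower, against 164 and 305 of all tested genes. None passed, and none had an unadjusted p under 0.05. Their median was −0.29, made of −1.40 for CEC and 1.02 for Nissle. The median turned to 0.71 without DNBS sample 3. Among the chemokines that draw neutrophils, Cxcl1 was at 0.05 ± 0.79 (−0.92 for CEC, 1.02 for Nissle) and Cxcl2 at −0.85 ± 1.28 (−2.43 and 0.73). Cxcl5 was at 0.55 ± 0.62. Chi3l3, a chitinase-like lectin of myeloid cells, was at −0.94 ± 1.01 (−1.87 for CEC, −0.014 for Nissle). CEC sample 8 did not detect Chi3l3 (Ct 29.5) and was left out of these values. The shared difference was −0.18 without DNBS sample 3, −1.85 without CEC sample 1 and −1.83 with no filter on detection.

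**Figure D3:**
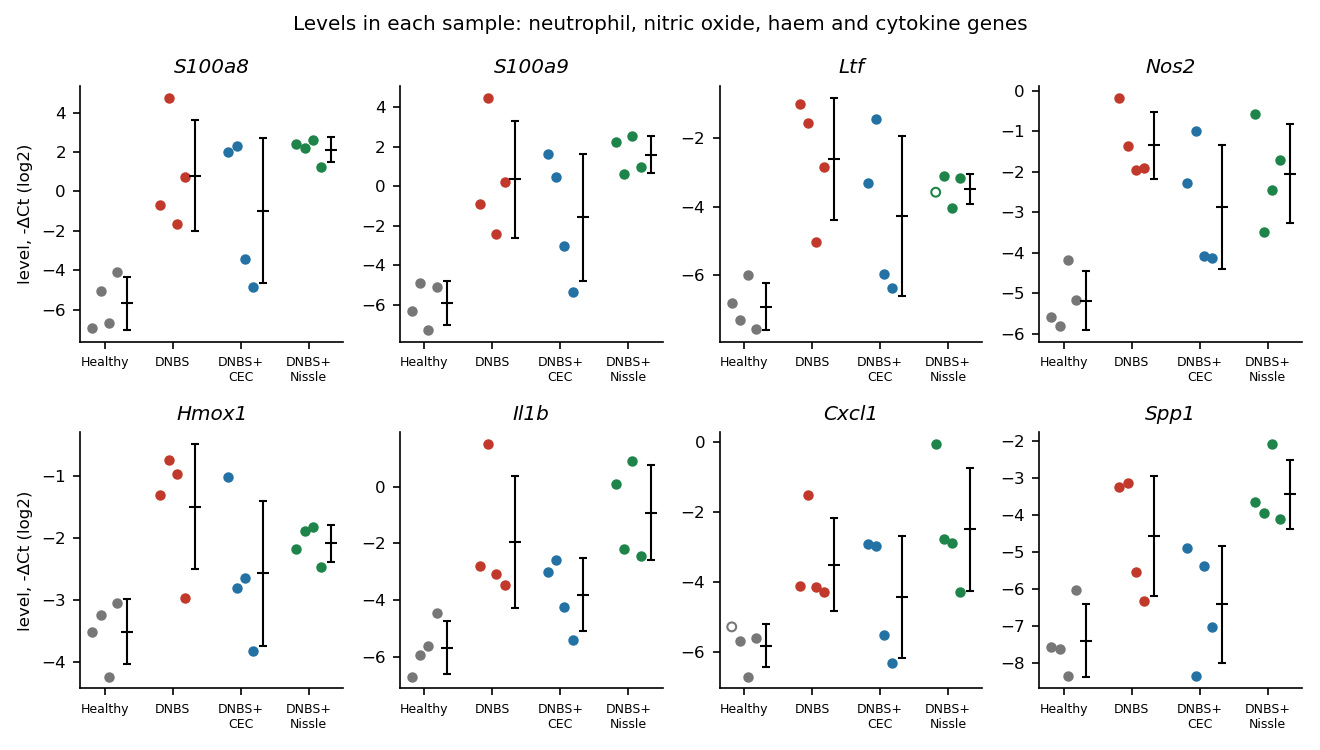
Levels (−ΔCt, log2 scale, vertical axis) of 8 neutrophil, nitric oxide, haem and cytokine genes in every sample of the 4 groups, with the mean and SD of each group (n = 4) beside its points and a filled-in value as an open circle. In S100a8 and S100a9 the CEC samples split into a high and a low pair while the Nissle samples cluster, and for Nos2 and Hmox1 the DNBS mean lies above the means of both bacterium groups.

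Several cytokines and enzymes of acute inflammation also had opposite signs for the strains. Il1b was at −0.40 ± 0.89 (−1.84 for CEC and 1.05 for Nissle). Its levels were −2.99, −2.59, −4.22 and −5.41 with CEC, 0.10, −2.21, 0.90 and −2.46 with Nissle, and −2.81, 1.50, −3.08 and −3.45 with DNBS alone. Every Nissle sample exceeded every CEC sample, but how many of all tested genes separate the strains in this way was not counted. DNBS sample 3 stood alone among its group. Without that sample the shared difference of Il1b was 0.75. Il6 was at 0.63 ± 1.11 by the assay detected in most samples, while the panel's other Il6 assays gave −0.10 and −0.33. Ptgs2, the inducible cyclooxygenase, was at −0.25 ± 0.79 (−1.16 for CEC, 0.67 for Nissle).

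In Nos2, Hmox1 and Tnf both strains had lower means than DNBS. Nos2, the inducible nitric oxide synthase, was at −2.28, −0.99, −4.09 and −4.13 with CEC, −0.58, −3.48, −2.45 and −1.70 with Nissle, −0.17, −1.36, −1.96 and −1.91 with DNBS alone, and between −5.81 and −4.17 in healthy mucosa. The low pair of CEC samples came near the healthy range, and 2 bacterium samples lay above the DNBS mean. The difference was −1.11 ± 0.63 (95% interval −2.44 to 0.21; unadjusted limma p = 0.095, exact permutation p = 0.172), and −0.72 without DNBS sample 2. Hmox1, which breaks down haem, was at −0.83 ± 0.48 and below the DNBS mean in 7 of 8 samples, and at −1.33 without DNBS sample 5. Tnf was at −0.66 ± 0.67, with Nissle sample 4 lowest at −7.77 and Nissle sample 1 highest at −2.78. Its difference was −0.20 without Nissle sample 4 and −1.03 without Nissle sample 1. Over the 11 tested genes of this list 5 were higher and 6 lower, none passed, and the median was −0.25 (−0.81 for CEC and 0.55 for Nissle). It turned to 0.34 without DNBS sample 3.

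The monocyte and macrophage markers had a median below 0 with both strains, as did all tested genes (−0.09 for CEC and −0.17 for Nissle). Of 11 tested markers 3 were higher and 8 lower, against 164 and 305 of all tested genes. None passed or had an unadjusted p under 0.05, and the median was −0.40 (−0.49 for CEC and −0.28 for Nissle). The integrin Itgam was at −0.99 ± 0.68, the haemoglobin scavenger receptor Cd163 at −0.90 ± 0.52, and the mannose receptor Mrc1 at −0.40 ± 0.38. The 3 higher members were Csf2rb at 0.20 ± 0.49, Cd14 at 0.10 ± 0.41 and Csf2ra at 0.01 ± 0.36. Aif1 was near 0, at −0.09 ± 0.35. The list's median stayed below 0 in all 23 alternatives tried, between −0.50 and −0.23. Its mean level per sample ranged from −3.68 to −2.91 with CEC, −3.70 to −2.37 with Nissle, −3.33 to −2.20 with DNBS alone and −3.49 to −3.00 in healthy mucosa, so all groups overlapped. Of 10 chemokines for monocytes and macrophages 3 were higher and 7 lower, and none passed. Here the strains had opposite signs, with a median of −0.18 made of −0.64 for CEC and 0.18 for Nissle, and it turned to 0.12 without DNBS sample 3. Ccl2, the main monocyte attractant, was at −0.50 ± 0.63, and −0.071 without DNBS sample 3. Spp1 (osteopontin) was at −0.37 ± 0.73, with −1.85 for CEC and 1.12 for Nissle.

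The genes of lipid mediators also had medians below 0. In the prostaglandin and leukotriene pathway 1 of 8 tested genes was higher and 7 were lower, none passed, and the median was −0.36. Over all tested genes 164 were higher and 305 lower, with a median of −0.14. Ptges, which makes prostaglandin E, was at −1.04 ± 0.63, and Alox5ap, which activates 5-lipoxygenase for leukotriene synthesis, at −0.91 ± 0.58. Ptgs1, the constitutive cyclooxygenase, was at −0.76 ± 0.63. The median was −0.61 for CEC and −0.16 for Nissle and remained below 0 in all 23 alternatives, though at −0.02 with quantile normalization. Of 4 phospholipases A2, which free the fatty acids for this pathway, 1 was higher and 3 were lower, with a median of −0.26. Here the strains had opposite signs, at 0.08 for CEC and −0.47 for Nissle. With quantile normalization the phospholipase median was −0.03.

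Other immune lists centred near 0. Of 8 interferon and type 1 genes 4 were higher and 4 lower (median −0.02), of 12 type 2 genes 5 and 7 (−0.05), of 7 type 3 genes 3 and 4 (−0.10), and of 8 regulatory genes 4 and 4 (−0.01). These medians changed sign in 3 to 13 of 23 alternatives, scaling among them. Tgfb1, a growth factor that restrains immune cells, was at −0.29 ± 0.38, and Tlr4, the lipopolysaccharide receptor, at −0.01 ± 0.40 with a 95% interval of −0.86 to 0.84. Of 21 Toll-like receptor genes and partners 8 were higher and 13 lower (median −0.10, but 0.12 with quantile normalization). Of 20 genes of the tumour necrosis factor superfamily 11 were higher and 9 lower (0.04, but −0.11 without CEC sample 2 and 0.21 with the global mean), and of 16 activin and bone morphogenetic protein genes 6 and 10 (−0.06, but 0.23 with quantile normalization). None of these genes passed or had an unadjusted p under 0.05.

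Markers of further cell types gave small differences. For comparison, 164 of all tested genes were higher and 305 lower, with a median of −0.14. Of 5 T cell markers 4 were higher and 1 lower, with a median of 0.19 (0.57 for CEC and −0.13 for Nissle). The median was 0.02 without CEC sample 2, and −0.28 with a detection limit of Ct 26. All 3 tested B cell markers were lower, with a median of −0.23 that was 0.08 with quantile normalization, −0.76 without DNBS sample 3 and 0.0083 without DNBS sample 2. All 4 tested eosinophil and mast cell markers were lower, with a median of −0.18 that was 0.05 with quantile normalization and −0.49 without DNBS sample 3. Of 5 epithelial genes 2 were higher and 3 lower (median −0.46, but 0.00 without DNBS sample 2), and of 5 endothelial genes 3 and 2. The endothelial median was 0.05, but −0.34 without DNBS sample 5 and 0.35 without DNBS sample 4. No marker in these lists passed or had an unadjusted p under 0.05.

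**Figure D4:**
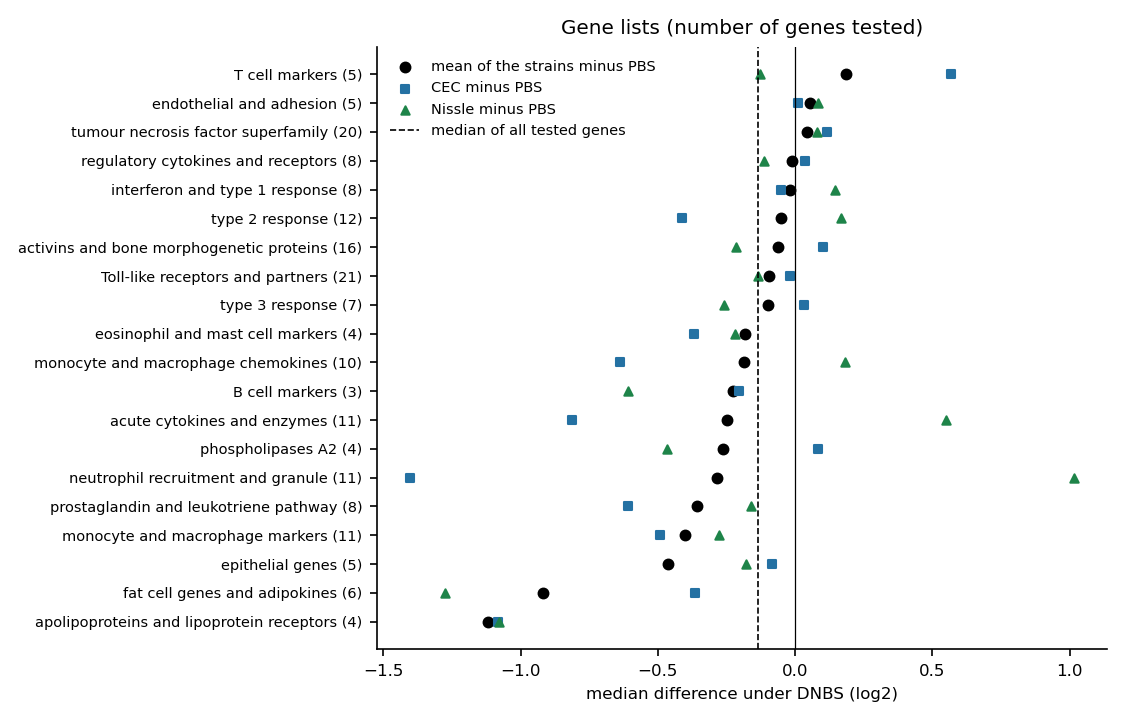
Median difference from DNBS on the log2 scale (horizontal axis) over the tested genes of each list (number in brackets), for the mean of both strains (circle), CEC (square) and Nissle (triangle), with the median of all 469 tested genes as a dashed line. Strains lie far apart for the neutrophil (−1.40 and 1.02) and acute cytokine lists (−0.81 and 0.55). Both lie below 0 for the apolipoprotein, fat cell, macrophage marker, prostaglandin, B cell, eosinophil, epithelial and Toll-like receptor lists. The medians of all tested genes are below 0 as well, at −0.09 for CEC and −0.17 for Nissle.

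The difference between CEC and Nissle was tested over the same genes. None passed, and the lowest adjusted p in limma was 0.561. An unadjusted p under 0.05 was found for 21 genes (4.48%), 4 higher and 17 lower with CEC. None of these 21 genes was among the 7 with an unadjusted p under 0.05 for the shared difference. With so few genes on either side, the lack of overlap tells little. CEC minus Nissle was −2.97 ± 0.84 for Spp1, −2.89 ± 1.03 for Il1b, −3.16 ± 1.43 for S100a9 and −3.10 ± 1.51 for S100a8 (SE in each case), and the first 3 of these had an unadjusted p under 0.05. For these genes the mean of the strains lies between CEC and Nissle values that are several-fold apart.

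**Figure D5:**
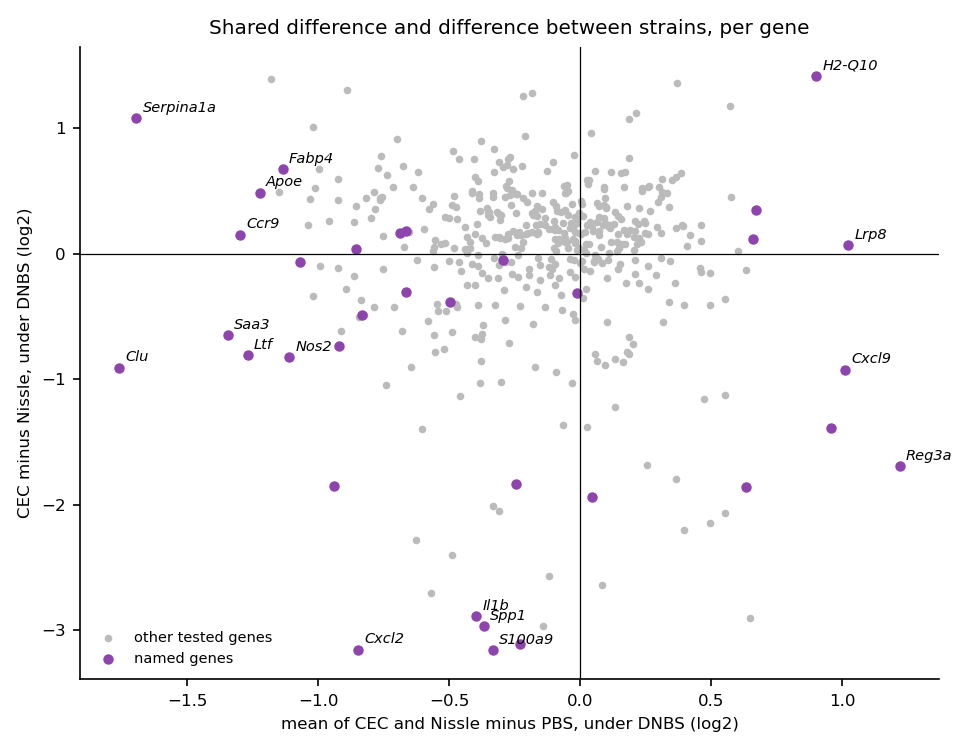
Each point is a tested gene, with the shared difference from DNBS on the horizontal axis and CEC minus Nissle on the vertical axis (both log2), and named genes in purple. Lrp8, Apoe, Ccr9 and Fabp4 lie far from 0 on the horizontal axis with a strain difference under 1, whereas Il1b, Spp1, S100a9 and Cxcl2 lie between −3.16 and −2.89 on the vertical axis.

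Detection was compared for 94 genes found in some but not all of the 12 samples. By the rule of at least 6 of 8 against at most 1 of 4, or at least 3 of 4 against at most 2 of 8, 2 genes differed (2.13%), both read more often with the bacteria, and neither passed (adjusted p = 1 in the two-sided Fisher's exact test). Ifng, the main cytokine of type 1 immunity, was detected in 3 CEC, 4 Nissle and 1 DNBS sample (unadjusted exact p = 0.0667) and in 2 healthy samples. Its Ct was 28.6, 25.2, 27.5 and 27.5 with CEC, 23.4, 27.4, 27.7 and 25.8 with Nissle, and 28.2, 28.6, 29.1 and 26.6 with DNBS alone. Only Nissle samples 1 and 7 and CEC sample 2 lay more than 0.5 cycles below all DNBS samples, and the rest sat around the limit of 28.

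Tnfrsf25, a T cell receptor for the cytokine TL1A, was detected in 2 CEC, 4 Nissle, 1 DNBS and 1 healthy sample (unadjusted exact p = 0.222), with every Ct between 27.1 and 30.4. Neither gene met the rule when the limit was moved to Ct 26, Ct 30 or any Ct below 40. Il10, an anti-inflammatory cytokine, was detected in 0 of 16 samples. The panel gives no depth in molecules, so no limit on its RNA was computed.

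Single samples departed from the DNBS group in different directions. Against the range of the 4 DNBS samples, the bacterium samples had 11 to 126 genes above it and 18 to 183 below it, of 460 to 468 genes with a value. CEC sample 6 (126 above, 41 below) and Nissle sample 5 (98 above, 18 below) had more genes above, and the other 6 samples more below, with Nissle sample 7 at 11 above and 183 below. The Ywhaz Ct was 25.3 and 24.8 in CEC sample 6 and Nissle sample 5 and 18.4 in Nissle sample 7. It was also 25.3 in CEC sample 1, which had 50 genes above and 104 below. In DNBS samples 2, 3, 4 and 5 the Ywhaz Ct was 25.4, 18.8, 24.5 and 18.6, so the DNBS range itself carries this spread. With Ywhaz and Rplp2 left out of the reference, CEC sample 6 had 75 above and 105 below, Nissle sample 1 turned from 69 above and 92 below to 95 and 83, Nissle sample 5 had 87 and 37, and Nissle sample 7 had 14 and 213. The other 4 samples had more genes below than above under both references. The same reference gave a median shared difference of −0.16 and 0 genes passing, with 10 genes at an unadjusted p under 0.05.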

How the data were processed

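The authors deposited raw Ct values of the TaqMan OpenArray Mouse Inflammation Panel with no normalization, a unit recorded as other; the RNA came from a mirVana kit, per the labels' protocols. Thresholding software and quality filters are not given in the sources used here. Levels were the mean Ct of 13 reference genes (19 assays, averaged per gene) minus each gene's Ct; 2 reference genes are not reported here by name. Where a gene had several assays (50 genes), those detected in most samples were averaged. Values above Ct 28 were left out of the fit, which touched 43 of 469 tested genes in the 12 DNBS samples. A value within 2e-06 of the mean of its group's other samples was called filled-in (60 tested genes). Limma 3.58.1 (lmFit, eBayes) in R 4.3.3 was fitted over all 16 samples in 4 groups, with 12 residual degrees of freedom, and tested on simulated data. Detection used a two-sided Fisher's exact test. Named genes were those passing the threshold (at most 20), the 12 of lowest p, the 5 largest and 5 smallest differences, up to 8 whose groups did not overlap, up to 8 detection differences and 18 inflammation genes fixed by name. The members, lists and tests were chosen with earlier results of these data known. Some values may have lost digits before deposit: 532 of 10368 had 4 or fewer decimals, and some gene names lack a digit pair. Replicate numbers were checked as pairs: of 10 same-numbered pairs 4 had a correlation over 0.1, so they were not used as pairs. Of 223 names, 215 are current RefSeq symbols; Chi3l3, Il8rb and Il8ra are now Chil3, Cxcr2 and Cxcr1.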

Additional observations from a re-analysis of the deposited data

Results flagged for a closer look

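In 97 groups of 4 samples, over the named genes, a sample that stood apart from the other samples of its group was sought with Dixon's criterion, and 5 were found. Chance alone gives about 1 in 20 groups. Hif1a in Nissle sample 7 was at −0.74, with the other Nissle samples between 0.00 and 0.15. Cxcl9 in CEC sample 2 was at −0.58, with the others between −4.64 and −4.56. Among DNBS samples, Il1b in sample 3 was at 1.50 (others −3.45 to −2.81) and Cxcl1 in sample 3 at −1.53 (others −4.28 to −4.11). Tnf in DNBS sample 2 was at −3.91 (others −4.65 to −4.57).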

How the results depend on the processing

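No gene passed for the shared difference or for CEC minus Nissle under any of the alternatives run, which changed the reference genes, the scaling, the detection limit, the filled-in and shortened values, the samples in the fit and the left-out sample. For the shared difference the lowest adjusted limma p ran from 0.569 (without DNBS sample 3 and CEC sample 8, a setting added after seeing the data) to 1.0, and between 3 (without DNBS sample 2) and 20 genes (without Nissle sample 5) had an unadjusted p under 0.05. For CEC minus Nissle the lowest adjusted limma p ran from 0.0914 (no filter on detection) to 0.978, and between 8 (limit of Ct 26) and 36 genes (without Nissle sample 7) had an unadjusted p under 0.05. With the replicate block, 0 genes passed, 15 had an unadjusted p under 0.05, 52.7% were higher, the median was 0.04, and 3 of the 7 genes with an unadjusted p under 0.05 kept it, but the same-numbered samples did not deviate together.

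The count of detection differences, 2, became 0 at Ct 26, 3 at Ct 30 and 4 at any Ct below 40, and ran from 1 to 5 when single samples were left out.

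Among the named genes, 51 values under alternatives reversed and 828 did not; the cause of the reversals was not tested. Leaving out single samples gave −0.0024 to 1.85 for Reg3a, −0.071 to 1.77 for Ins2, −1.04 to 1.09 for S100a8, −1.26 to 1.04 for S100a9, −0.90 to 0.75 for Il1b, −0.32 to 1.56 for Il6, −0.36 to 0.71 for Cxcl1, −1.57 to 0.39 for Cxcl2, −0.97 to 0.63 for Ptgs2, −0.96 to 0.11 for Spp1 and −0.26 to 0.19 for Tlr4. With the replicate block S100a8 was at 0.76, S100a9 at 0.52, Il1b at 0.17, Cxcl2 at 0.41, Ccl2 at 0.054, Ptgs2 at 0.33 and Tlr4 at 0.17. Without DNBS sample 3 and CEC sample 8 together S100a8 was at 1.74, S100a9 at 1.67, Il1b at 1.02, Cxcl2 at 0.74, Ccl2 at 0.26, Ptgs2 at 0.72 and Spp1 at 0.21. Without values of 4 or fewer decimals Reg3a was at −0.49, Tgfb1 at 0.068 and Tlr4 at 0.051. Tlr4 was at 0.022 with the 3 most stable controls, 0.039 with Gapdh alone and 0.15 with the global mean. Ptgs2 was at 0.076 with quantile normalization, Il6 at −0.20 with a limit of Ct 26, and Ins2 at −0.58 with no filter on detection and −0.056 with undetected values set at Ct 28. Lrp8, Apoe, Clu, Fabp4, Twist1, S1pr1 and Ccr9 kept their direction in all alternatives run. Precision is limited by 4 samples per group, and most genes' intervals reach past a 2-fold difference.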
